A study of Mus musculus with 2 samples.

Results

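The 9 genes described here belong to the Nodal and Lefty pathway of mouse embryonic stem cells (mESCs): Nodal, Lefty1, Lefty2, Tdgf1, Smad7, Skil, Acvr1b, Acvr2b and Gdf3. They were taken by gene symbol from 23889 symbols with an expression value, and all 9 were present. RNA was sequenced from E14 cells, an mESC line grown without feeder cells on gelatin in medium with 15% FBS and 1000 U/ml LIF, to ask how the transcriptome looks when the deubiquitinase USP21 is depleted. One library came from cells transfected with a control shRNA (genotype label Normal) and 1 from cells transfected with an USP21 shRNA (genotype label USP21 knockdown), both harvested at day 3. The labels do not say which USP21 shRNA was used or how many cultures went into a library. Values are FPKM, that is fragments scaled to transcript length and to sequencing depth, so levels of different genes can be set side by side within a library. With 1 library per group there is no replicate error and no test, and every difference below compares these libraries only. The 9 genes were chosen from a list of the pathway with the FPKM values of both libraries in view, including the low value of Lefty2 after USP21 knockdown, so all values are given as a description.

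Nodal is a secreted ligand of the TGF-beta family. It is processed by convertases outside the cell and binds a receptor complex of a type I chain (such as Acvr1b, also called ALK4) and a type II chain (such as Acvr2b), with Tdgf1 (Cripto) as the co-receptor. The receptors phosphorylate Smad2 and Smad3, which join Smad4 and the DNA-binding partner Foxh1 on target genes. Lefty1 and Lefty2 are both targets and secreted antagonists of Nodal, and Smad7 and Skil act as inhibitors inside the cell. In mESCs the pathway is active in standard culture with serum and LIF, and the Lefty genes are among its best known readouts there.

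Lefty1 and Lefty2 were compared at the sequence level first, because the values of both genes depend on how fragments were divided between them. In GENCODE M21 (GRCm38) Lefty2 lies on chromosome 1 from 180893108 to 180899103 and Lefty1 from 180935022 to 180938400, both on the plus strand with 4 exons. The FPKM values were made on mm9, so these positions serve only to place the sequences. The coding sequences of both genes have 1104 bases and align without a gap, with 1014 identical bases (91.8%). The longest identical run covers 140 bases, coding bases 493 to 632, and crosses from exon 2 into exon 3. Reads lying wholly within this run cannot be assigned to either gene by sequence, and its last 30 bases in exon 3 (chr1:180937114-180937143 in Lefty1 and chr1:180894701-180894730 in Lefty2) are shown for that reason.
Lefty1, coding bases 603 to 632: gtcggtgcagagggagcatctggggccggg
Lefty2, coding bases 603 to 632: gtcggtgcagagggagcatctggggccggg

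Within the coding sequence, the 30 bases with the most differences, 12 in number, were coding bases 109 to 138 in exon 1 (chr1:180935218-180935247 in Lefty1 and chr1:180893292-180893321 in Lefty2). Capitals mark the bases that differ.
Lefty1, coding bases 109 to 138: ctcGATcaACcGccAGTcctggacaAGgcT
Lefty2, coding bases 109 to 138: ctcAGCcaGGcCccCACcctggacaGCgcG

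Of all words of 75 bases in the coding sequence, 16.8% occur in both genes, and 7.26% of words of 100 bases do. Outside the coding sequence no word of 31 or more bases is shared, and downstream of it Lefty1 has 428 bases and Lefty2 1293, of which 424 align. The transcripts have 1620 bases (Lefty1) and 2473 bases (Lefty2), so most of either transcript can be assigned. The read length and the way shared fragments were divided are not given in the sources used here, and the sum of both genes is therefore given beside the single values. Of the other members, Tdgf1 shares 17.4% of its words of 31 bases with the pseudogene Tdgf1-ps1, which was not analysed here. Gdf3 shares 3.29%, and for Nodal, Smad7, Skil, Acvr1b and Acvr2b the share is 0.182% or less.

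Usp21 was checked before the members. It stood at an FPKM of 26.2 in the control library and 3.49 in the knockdown library, a log2 ratio of -2.87. Here and below the log2 ratio is log2 of (FPKM + 0.1) with the USP21 shRNA over (FPKM + 0.1) with the control shRNA, which understates differences of low genes. The FPKM values summed to 613617 and 543206, and by the spacing of the lowest values the control library was some 1.24 times deeper. Scaling both libraries to equal sums adds about 0.18 to the log2 ratios, which is stated below where it turns a direction. All 8 listed mESC markers were present (summed FPKM 4094 and 3096), and 7 of them were lower with the USP21 shRNA, or 5 with the libraries scaled to equal sums. Abundant genes in general leaned the same way, with a median log2 ratio of -0.18 at a mean FPKM of 100 or more. The summed FPKM of the lists for other cell types was 18.3 and 6.04 for fibroblasts, of which Thy1 gave 17.3 and 5.29, 22.4 and 25.7 for primitive endoderm, 30.9 and 35.1 for primed epiblast, 2.57 and 2.29 for mesendoderm, 1.93 and 2.12 for trophectoderm and 2.25 and 1.71 for blood (Hbb-b1 at 0 in both). Thy1 had a log2 ratio of -1.69, and 0.562% of the 15316 genes with an FPKM of at least 0.1 in either library were as low or lower. Of the same list Col1a1 was at -0.45 and Col1a2 at 0.33, both at an FPKM under 1. In some other lists single markers differed by more than the sums. Otx2, a factor of the primed epiblast, had 4.42 and 8.78, a log2 ratio of 0.97 that became 1.15 with equal sums. Dnmt3b (24.5 and 23.9) made up most of the sum of that list, and its log2 ratio of -0.04 became 0.14 with equal sums. Pou3f1 of the same list was at 0.38, and Fgf5 was too low to be compared (FPKM 0.0999 and 0.0517). Pdgfra, a marker of primitive endoderm, had 2.48 and 4.22, a log2 ratio of 0.75. In its list Gata6 was at 0.32 and Gata4 at 0.02, while Sox17 (-0.18) and Foxa2 (-0.23) were below 0. The median of that list was 0.02. The part of these markers in the differences below was not tested. In such bulk RNA, fewer cells of a type and less RNA per cell cannot be told apart.

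**Figure D1:**
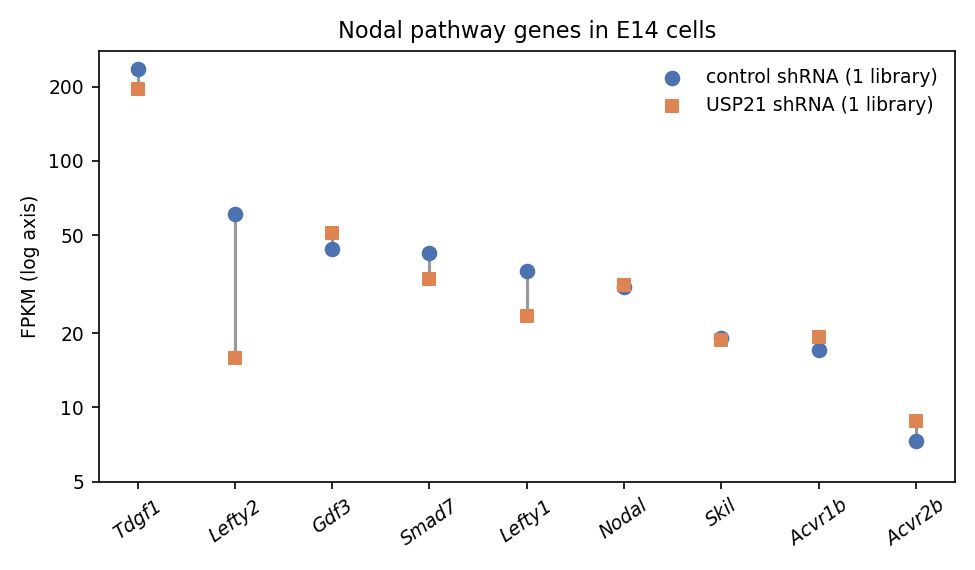
FPKM (log axis) of the 9 genes in the control shRNA library (circles) and the USP21 shRNA library (squares), ordered by the control level, with a grey line joining both values of a gene. The line of Lefty2 is the longest, from 60.8 to 15.8, while the markers of Nodal and Skil nearly coincide.

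Among the ligands, Nodal was at an FPKM of 30.9 in the control and 31.4 in the USP21 shRNA library. The log2 ratio was 0.03, and 52.4% of the 15316 genes with an FPKM of at least 0.1 in either library had a ratio as low or lower, so Nodal sat in the middle of all genes. Gdf3, a related ligand of the family that also uses Cripto, had 44.1 and 51.1, a log2 ratio of 0.21. Gdf3 was thus the more abundant of these ligands in both libraries, at 1.43 times the level of Nodal with the control shRNA and 1.63 times with the USP21 shRNA. The other listed ligands were Inhbb (a subunit of activin B) at 32.6 and 32.2, Gdf1 at 2.59 and 2.73, and Inhba (a subunit of activin A) at 0.0145 and 0. The direction of Inhbb turned with equal sums (log2 ratio 0.15 in place of -0.02). None of the 4 ligands past the filter was 2-fold apart between the libraries, and Inhba was too low to be compared.

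The antagonists differed most. Lefty2 was at an FPKM of 60.8 in the control and 15.8 in the USP21 shRNA library, 0.260 times the control level and a log2 ratio of -1.94. Only 45 of the 15316 genes, Lefty2 included, had a ratio this low (0.294%). Lefty1 had 35.8 and 23.6, 0.659 times the control level and a log2 ratio of -0.60, with 8.51% of genes as low or lower. Both Lefty genes were therefore lower with the USP21 shRNA, but to unequal degrees. Lefty2 was the second most abundant of the 9 genes in the control library and the eighth in the other, while Lefty1 was the fifth in both.

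The order of the Lefty genes also turned. Lefty2 stood at 1.70 times Lefty1 with the control shRNA and at 0.671 times with the USP21 shRNA, and its part of the summed Lefty FPKM went from 63.0% to 40.1%. The sum itself was 96.6 and 39.4, which is 0.408 times the control level and a log2 ratio of -1.29. Lefty2 made up 78.7% of the difference in the sum. If each shared fragment was counted once, the sum does not depend on how fragments are divided between the genes except through their lengths. Whether shared fragments were counted once is not given in the sources used here. With each gene weighted by its transcript length, a choice made after the values were seen, the log2 ratio of the sum was -1.43.

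**Figure D2:**
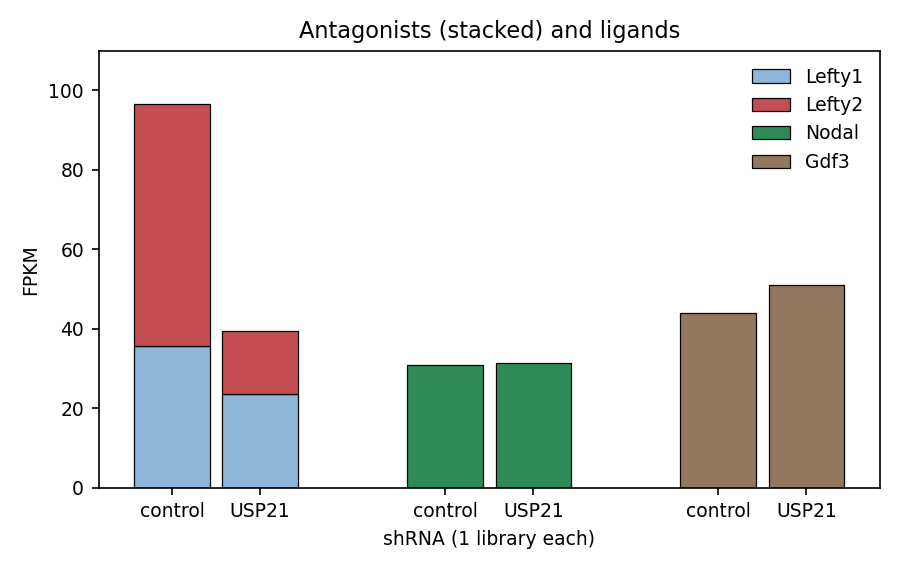
FPKM of Lefty1 and Lefty2 (stacked) and of the ligands Nodal and Gdf3 in the control and USP21 shRNA libraries, 1 bar per library with no error since there are no replicates. The Lefty stack stands at 96.6 and 39.4, whereas the Nodal bars are at 30.9 and 31.4.

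Set against the ligand, the summed Lefty level was 3.13 times that of Nodal with the control shRNA and 1.25 times with the USP21 shRNA. This ratio is formed within a library and so does not change with the scaling between libraries. For Lefty2 alone the ratio to Nodal was 1.97 and 0.503, and for Lefty1 alone it was 1.16 and 0.750. In the USP21 shRNA library each Lefty gene was therefore below Nodal, and in the control library each was above it. Of the remaining listed extracellular antagonists, Dand5 had an FPKM of 1.34 and 1.75, Fst (follistatin, which binds activins) had 1.95 and 2.07, and Cer1 was listed at 0 in both libraries.

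Tdgf1, the co-receptor, was the most abundant of the 9 genes in both libraries, with an FPKM of 235 and 195. Its log2 ratio was -0.27, and -0.09 with the libraries scaled to equal sums. It was at 7.62 times the level of Nodal with the control shRNA and at 6.21 times with the USP21 shRNA. Genes with a mean FPKM of 100 or more had a median log2 ratio of -0.18, with 5% of them under -0.55, so Tdgf1 lay within the spread of genes of its level. Cfc1, the other co-receptor of this family, was at 0.0966 and 0.0383, under the level at which genes were compared.

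The receptors were slightly higher with the USP21 shRNA. Acvr1b, the type I chain, had an FPKM of 17.1 and 19.4, a log2 ratio of 0.18. Acvr2b, the type II chain, had 7.31 and 8.77, a log2 ratio of 0.26 and the highest of the 9 genes. Acvr1b stood at 2.33 times Acvr2b in the control library and at 2.21 times in the other. Acvr2a, a second type II chain, had 3.86 and 4.78, a log2 ratio of 0.30, and the type I chain Acvr1c (ALK7) was listed at 0 in both libraries. Ratios of this size were common, since 26.1% of all genes tested were as high as Acvr2b or higher.

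Of the inhibitors inside the cell, Smad7, which binds the activated receptors, had an FPKM of 42.4 and 33.1. Its log2 ratio was -0.36, and 17.5% of genes had a ratio as low. Skil (SnoN), a nuclear repressor that binds Smad proteins, had 19.2 and 18.8. The log2 ratio of Skil was -0.03, and it became 0.15 with the libraries scaled to equal sums and -0.21 when corrected for transcript length, so no direction can be given for this gene.

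**Figure D3:**
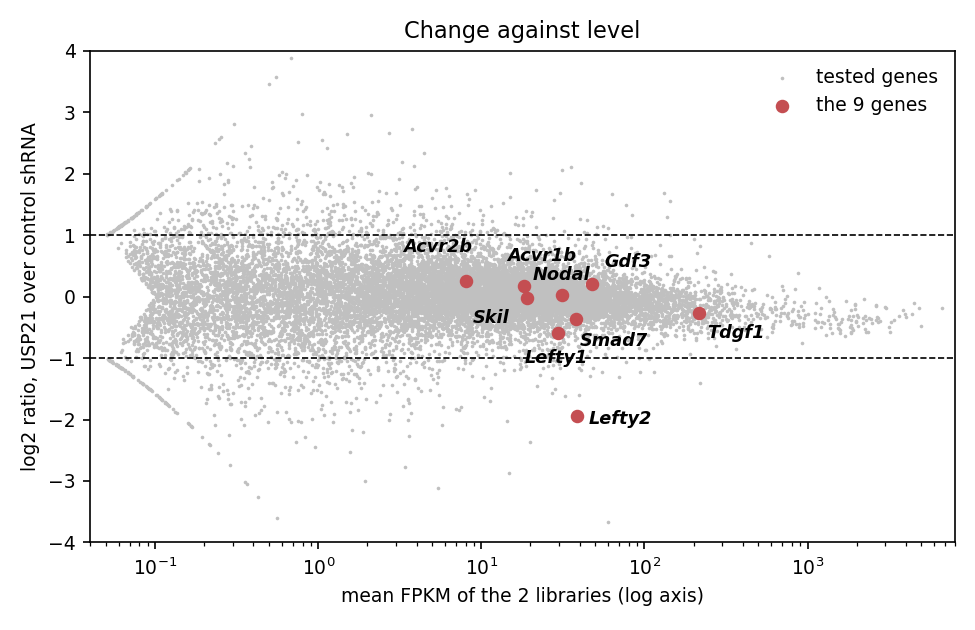
Log2 ratio of the USP21 shRNA over the control shRNA library against the mean FPKM of both (log axis) for the genes tested (grey) and the 9 genes (red, named), with dashed lines at 2-fold; 4 genes lie outside the range of -4 to 4. Lefty2 lies below the lower line at -1.94 and the other 8 lie between the lines.

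Counted together, 5 of the 9 genes had a log2 ratio below 0 and 4 above 0, with a median of -0.03 (-0.21 when corrected for transcript length) beside 0.0046 over all genes tested. Lefty2 was the 1 gene of 9 at least 2-fold lower, and none was at least 2-fold higher. Over the 11927 genes with an FPKM of at least 1 in either library, 2.03% were at least 2-fold lower and 2.30% at least 2-fold higher. Such differences were rarer at the level of Lefty2, where 0.829% of the 5670 genes with a mean FPKM of 10 to 100 were at least 2-fold lower. With a limit of 1.5-fold, Lefty1 and Lefty2 were lower and none was higher, beside 6.46% and 7.77% of genes. Lefty1 was only just past this limit. It fell short with a pseudocount of 1 (-0.58), with equal sums (-0.42) and with the length correction (-0.52), which left Lefty2 alone. In the class with a mean FPKM of 10 to 100, 5% of genes had a log2 ratio below -0.52, and Lefty1 at -0.60 and Lefty2 were the members beyond it. Without the Lefty genes the remaining 7 ranged from -0.36 to 0.26, with a median of 0.03.

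Transcript length moved with the log2 ratio over all genes, with medians of -0.23 for transcripts under 1000 bases and 0.14 for those of 4000 bases and more. Lefty1 (1620 bases) and Tdgf1 (1932 bases) fall in the class from 1000 to under 2000 bases, where the median was -0.09. Lefty2, Nodal, Gdf3 and Acvr2b fall in the class from 2000 to under 4000 bases, where it was -0.01.

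The rest of the pathway was read from lists of its genes ordered by role, drawn up with earlier results of these data known. Of 37 listed genes of the Nodal pathway, 33 passed the filter, 24 of them outside the 9 genes, and the median log2 ratio was 0.10. Lefty2 was the 1 gene at least 2-fold lower, and none was at least 2-fold higher. With a limit of 1.5-fold, 4 were lower (Lefty1, Lefty2, Mixl1 and Pmepa1) and 2 were higher (Foxh1 and Smurf1), beside 6.46% and 7.77% of all genes with an FPKM of at least 1. The count of higher genes is near that background. The count of lower genes includes both Lefty genes, chosen with the low value of Lefty2 in view, so it is no separate result. Outside the Lefty pair it rests on Pmepa1 and on Mixl1, which was at a low FPKM of 1.06 and 0.613. With equal sums Lefty1 (-0.42), Pmepa1 (-0.43) and Mixl1 (-0.54) fell short of 1.5-fold lower, and Smad2 (0.67) passed 1.5-fold higher.

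**Figure D4:**
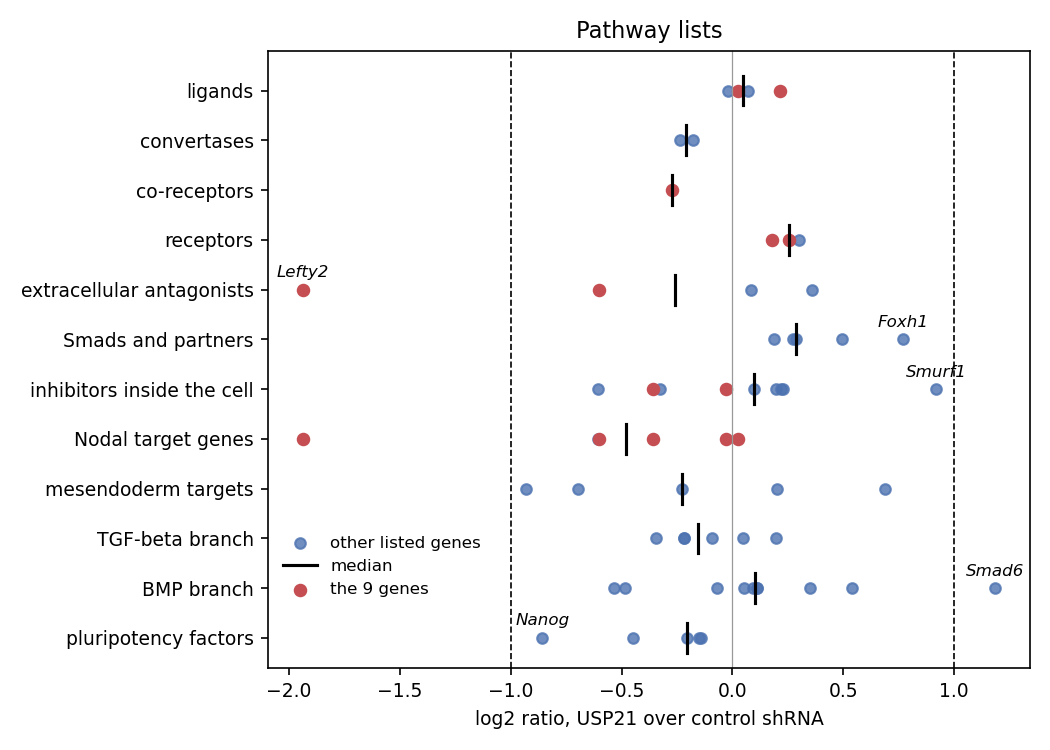
Log2 ratio of each gene past the filter by list, with the 9 genes in red, other genes in blue, the list median as a black bar and dashed lines at 2-fold. All 5 Smads and partners lie above 0, and Lefty2 and Smad6 (of the BMP branch) are the genes outside the lines.

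The convertases that can process Nodal differed little, with Pcsk6 (PACE4) at 21.6 and 18.4 and Furin at 9.51 and 8.39. Their log2 ratios of -0.23 and -0.18 became -0.06 and -0.0056 with equal sums, and 25.9% and 30.7% of all genes tested were as low or lower. The Smads and their partners were all higher with the USP21 shRNA, with a median log2 ratio of 0.29. Foxh1, the DNA-binding partner that brings Smad2 and Smad3 to Nodal targets, had an FPKM of 17.7 and 30.2, a log2 ratio of 0.77. Smad2 had 11.1 and 15.7, Smad3 had 4.39 and 5.01, and Smad4 had 20.8 and 25.2. None of these 5 genes was 2-fold apart. Over all genes tested, 7732 of 15316 had a log2 ratio above 0. The share of genes as high or higher was 31.6% for Smad3, 24.7% for Smad4, 23.9% for Trim33, 12.9% for Smad2 and 6.12% for Foxh1.

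Among the 9 listed inhibitors inside the cell, 4 had a log2 ratio below 0 and 5 above 0, where equal sums turned Skil and the length correction turned the phosphatase Ppm1a (0.10 before it). Smurf1, a ubiquitin ligase that targets Smads and receptors, had the largest difference, with an FPKM of 6.97 and 13.3 and a log2 ratio of 0.92. It passed 2-fold with the libraries scaled to equal sums. Pmepa1, a feedback inhibitor that binds Smad2 and Smad3, had 6.93 and 4.52, a log2 ratio of -0.61. Tgif1, a nuclear corepressor of Smads, had 110 and 87.6, and Ski, a relative of Skil, had 32.2 and 37.4.

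Of 6 listed target genes of Nodal signalling (Nodal, Lefty1, Lefty2, Smad7, Skil and Pmepa1) 5 had a log2 ratio below 0, and the median was -0.48. Since 5 of these 6 are among the 9 genes, the list adds Pmepa1 only. With equal sums Skil turned and 4 were below 0. The 5 genes below 0 ranged from Skil at -0.03 to Lefty2 at -1.94. Of the mesendoderm targets Gsc had 0.212 and 0.0641, Mixl1 had 1.06 and 0.613, T had 0.0931 and 0.211, Eomes had 1.20 and 1.40 and Foxa2 had 1.59 and 1.35. All 5 had an FPKM under 2 in both libraries, and none was 2-fold apart with an FPKM of at least 1.

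Pluripotency factors known to act on Nodal or Lefty genes all had a log2 ratio below 0, although that of Sox2 became 0.03 and that of Klf4 0.02 with the libraries scaled to equal sums. Nanog had an FPKM of 467 and 258 (log2 ratio -0.86), Klf2 had 54.6 and 40.0, Pou5f1 had 868 and 752, Klf4 had 85.0 and 76.5 and Sox2 had 241 and 218. The median of these 5 log2 ratios was -0.21, and -0.03 with the libraries scaled to equal sums. Lefty2 therefore differed by more than any of these factors, and the log2 ratio of Lefty1 lay between those of Nanog and Klf2 (-0.45). Genes with a mean FPKM of 100 or more had a median log2 ratio of -0.18, with 5% of them under -0.55. Pou5f1 (-0.21) and Sox2 (-0.14) lay within that spread, and Nanog lay beyond it. Klf2 and Klf4, with a mean FPKM of 10 to 100, lay above the -0.52 under which 5% of their class fell.

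The protein-coding genes on either side of the Lefty pair on the chromosome were read in their order in RefSeq, a choice made after the Lefty values were known. Tmem63a, next to Lefty1, had an FPKM of 6.38 and 4.11, a log2 ratio of -0.62 that was close to that of Lefty1. Sde2, next to Lefty2, had 54.1 and 62.7, a log2 ratio of 0.21. Of the 4 genes taken on either side 7 in all passed the filter, and 6 of these had a log2 ratio below 0, with a median of -0.33. Over all genes tested, 49.5% were below 0. Any gene between Lefty2 and Lefty1 was left out. The lowest neighbour was Mixl1 (-0.70, FPKM 1.06 and 0.613), itself a listed mesendoderm target. H3f3a (627 and 499) was at -0.33, where genes with a mean FPKM of 100 or more had a median of -0.18. Whether the region as a whole was lower was not tested. With the libraries scaled to equal sums 6 of 7 were still below 0, with a median of -0.15. None of these neighbours was 2-fold lower, and Lefty2 had the lowest log2 ratio of the genes shown.

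**Figure D5:**
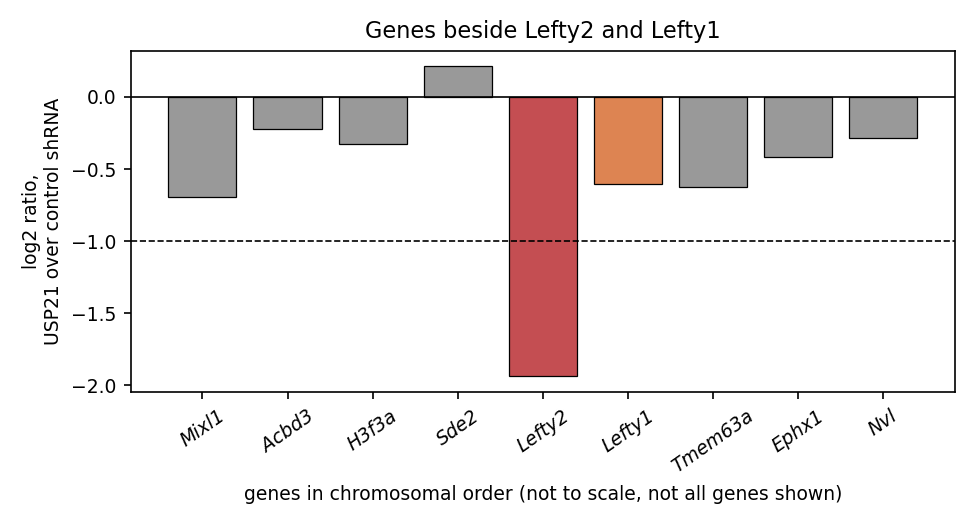
Log2 ratio of genes on either side of Lefty2 (red) and Lefty1 (orange) in chromosomal order, not to scale and with not all genes shown, for genes past the filter, with a dashed line at 2-fold lower. Lefty2 reaches -1.94, Tmem63a stands near Lefty1 at -0.62, and Sde2 is the gene above 0.

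The genes most like Lefty2 and Nodal were found by the distance between their log2(FPKM + 0.1) values in the 2 libraries, which 2 points per gene leave as a description only. For Lefty2 they were Gm13363 (59.6 and 19.6), Crlf3 (48.8 and 15.9) and Gtf2e1 (41.9 and 14.7), at distances of 0.31, 0.32 and 0.55. For Nodal they were Prps2, Memo1 and Dctn1, at distances from 0.0033 to 0.010.

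Promoters from RefSeq (GRCm38.p6, 250 bases before to 50 bases after the start) were given for 4 of the 9 genes, namely Nodal, Tdgf1, Acvr1b and Acvr2b. The Foxh1 motif AATNCACA, on either strand, was in none of these 4 windows and in 3.60% of all 32851 promoters. The short Smad motif CAGAC, on either strand, was in those of Tdgf1 and Acvr2b and in 49.6% of all promoters, and the palindrome GTCTAGAC was in none of the 4 and in 0.213% of all. No match says only that these letters are not in the window.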

How the data were processed

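RNA from E14 cells with a control or an USP21 shRNA was sequenced (1 library each). What the authors deposited are FPKM values, 1 for each symbol in each library. Their processing notes name CASAVA 1.8.2, TopHat2 2.0.14, Cufflinks 2.2.1 and mm9, and the annotation, read length and options are not given in the sources used here. No counts were given, so no count model or interval was computed, and the number of fragments behind a value is unknown.

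Log2 ratios used a pseudocount of 0.1. Genes with FPKM of at least 0.1 in either library served as the background (the genes tested), and 2-fold counts required at least 1. Transcript lengths, found for 95.2% of these genes, and shared sequence came from GENCODE M21 (transcript with the longest coding sequence), and promoters from RefSeq. Alternatives were pseudocounts of 1 and 0.01, equal sums, a median of 0, a lowess correction for length (span 0.3), 1.5-fold, no filter and a filter at 1. All 9 members were named. Of each pathway list (cell type markers aside), genes past 2-fold and the one with the largest log2 ratio were named, with others chosen after their values were seen. Some genes are not reported here. The members and lists were chosen with earlier results of these data known. The scripts were tested on simulated data. Python 3.11.15, numpy 2.4.6, pandas 2.3.3, statsmodels 0.14.6, matplotlib 3.10.9 and biopython 1.88 were used.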

Additional observations from a re-analysis of the deposited data

How the results depend on the processing

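With 1 library per group no alternative involves a test, and the verdicts are on direction and on the 2-fold limit. The log2 ratio of Lefty2 ranged from -1.94 to -1.76 and that of the Lefty sum from -1.43 to -1.12 over the alternatives, all past 2-fold, and Lefty1 ranged from -0.60 to -0.42. Scaling to equal sums turned the direction of Skil (0.15), of the median of the 9 genes (0.15) and of the TGF-beta list (0.019), and correcting for transcript length turned that of the inhibitors inside the cell (-0.11). With a limit of 1.5-fold, 2 members were lower, as were 3 Nodal targets, 2 extracellular antagonists, 1 inhibitor inside the cell, 1 mesendoderm target and 1 pluripotency factor, and 1 of the Smads and partners and 1 inhibitor inside the cell were higher. These lists overlap, so the same genes are counted more than once. Lefty1 and Lefty2 are the 2 members, the 2 antagonists and 2 of the 3 targets. Pmepa1 is both the remaining target and the lower inhibitor. These 1.5-fold counts hold for the main values only. With equal sums Lefty1 (-0.42), Pmepa1 (-0.43) and Mixl1 (-0.54) fell short of 1.5-fold lower, while Lefty2 (-1.76) and Nanog (-0.68) stayed past it. Equal sums also gave 1 inhibitor inside the cell at least 2-fold higher, and a pseudocount of 1 left 0 genes of the BMP branch so. The share of all genes at least 2-fold lower and higher was 0.838% and 0.906% with a pseudocount of 1, 1.28% and 3.71% with equal sums, and 6.46% and 7.77% at 1.5-fold. No paired analysis was possible because each group has 1 library. Of 365 alternative values 345 kept their direction and side or stayed within 1.5 times. Many of these are counts of genes past the fold limit that stayed at 0, so this share does not measure how firm a single result is. The median of the extracellular antagonists, -0.26 and 0 without a filter, is also among the 345. The cause of the changes was not tested.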

Other observations

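The BMP branch of the same family, which signals through Smad1 and Smad5, was read beside the Nodal branch. Of its 10 listed genes 7 had a log2 ratio above 0 and 3 below, with a median of 0.10, and equal sums turned Bmpr1a (from -0.07 to 0.10) while the length correction turned Bmpr2 (from 0.11 to -0.22). Over all genes tested, 49.5% were below 0, so neither side stands out by this count. Smad6, the inhibitory Smad of the BMP branch, was at an FPKM of 2.95 in the control and 6.84 in the USP21 shRNA library. Its log2 ratio was 1.19, and it was the 1 gene of the list past 2-fold. Of all genes with an FPKM of at least 1 in either library, 2.30% were at least 2-fold higher. At a mean FPKM under 10, as for Smad6, the share was 4.14%. Smad7, the inhibitory Smad among the 9 genes, had a log2 ratio of -0.36. The ligand Bmp4 had 17.7 and 12.2 (log2 ratio -0.53), and among the Id genes, known BMP targets in mESCs, Id1 had 95.3 and 98.9, Id2 had 13.6 and 17.4 and Id3 had 28.2 and 20.1.

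Of 6 listed genes of the TGF-beta branch 4 had a log2 ratio below 0, beside 49.5% of all genes tested. None was 2-fold apart, and the median was -0.16. The length correction turned its type II receptor Tgfbr2 (from 0.05 to -0.17). Its type I receptor Tgfbr1, whose kinase also phosphorylates Smad2 and Smad3, had an FPKM of 10.6 and 9.97, a log2 ratio of -0.09 that became 0.08 with equal sums. The largest log2 ratio in size was that of Tgfb3 (-0.35), at a level of 0.147 and 0.0944.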
